A study of Mus musculus with 24 samples.

Results

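The heat shock and cytosolic chaperone genes are the machinery that folds new proteins and refolds damaged ones, described here by the RNA levels of 39 listed genes in mouse N1E-115 neuroblastoma cells. A gene was taken when a probe of the array carried its name or an older synonym, and its brightest probe stood for it. Of the 39 genes, 38 had at least 1 probe (75 probes in all), against 27597 genes and 41174 probes on the whole array. Hsph1 is listed there as Hsp110 and Dnajb2 as Dnajb10, and Hspa1b had no probe under its name. Testing required a probe well above background throughout the 4 samples of some group, a condition met by 36 members and by 16240 of all genes. Hspa1a and Hspb1, the stress-induced HSP70 and HSP27, were not tested.

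The study compared 3 forms of the N1E-115 line, a neuroblastoma line taken as a neuronal model in work on cobalamin (vitamin B12) disorders, each in 2 media. WT cells were not transfected. TO cells carried a chimeric protein that joins transcobalamin, the blood carrier of cobalamin, by its N-terminal part to oleosin, and this protein holds cobalamin with high affinity. OT cells carried the fusion made with the C-terminal part, for which no cobalamin binding was detectable. The proliferation medium (p) contained 10% fetal calf serum in high-glucose DMEM, and the differentiation medium (d) contained 2.5% serum and 1.25% DMSO in the same base. Each of the groups WT-p, WT-d, TO-p, TO-d, OT-p and OT-d had 4 samples, called biological replicates in the design, and neither the number of cell clones behind each construct nor the separation of the cultures is given in the labels. The p-values therefore measure the spread between these samples, and clone and construct cannot be told apart. In every group the descriptions of 1 Cy5 and 1 Cy3 sample carry the same number, once with the letter b; what it marks is not given in the labels, so the 4 samples may hold 3 RNAs. With each such pair averaged, 196 of the 232 differences called below kept their call, and the count in TO-p against WT-p went from 16 to 8.

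Every sample was hybridised in 1 dye on a 2-colour array that carried another sample in the other dye, so 12 arrays on 3 slides held the 24 samples, with both dyes used equally in every group. Per sample, 54.26% to 65.87% of spots passed the scanner's background test, and none was saturated. Of 16 genes that mark sympathoadrenal neurons, 14 were above background in every group, while Nefl and Nefm were in none. Above background in every group were also 4 of 10 glial markers (5 in no group), 5 of 9 fibroblast and smooth muscle markers (3 in none) and 2 of 10 blood and endothelial markers (7 in none), and the part of other cell types in the results was not tested. Tcn2, the gene of the carrier, read higher in TO-p by 1.09 against WT-p and by 1.40 against OT-p on the log2 scale, and in TO-d by 0.58 against WT-d and 0.41 against OT-d. It also rose with the medium, by 0.98 in WT, 0.47 in TO and 1.46 in OT, and whether its probe reads the construct is not known.

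Heat shock factor 1 is the transcription factor that switches these genes on when unfolded proteins accumulate, and it binds heat shock elements, arrays of the short unit GAA and its inverse TTC. The HSP70 proteins bind exposed stretches of unfolded chains, J-domain proteins deliver the chains and start ATP hydrolysis, and HSP110 proteins and BAG proteins release the nucleotide. HSP90 and its cochaperones finish the folding of kinases and steroid receptors, the ring-shaped chaperonin CCT folds actin and tubulin, and HSP60 with HSP10 does the same work inside mitochondria.

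Promoter windows from 250 bases before to 50 bases after the start were available in the RefSeq promoter table (build GRCm38.p6) for 31 of the 39 genes, 42 windows in all. A heat shock element of 3 units was searched on both strands as GAA, any 2 bases, TTC, any 2 bases and GAA, or as the same with TTC, GAA and TTC, and was found in the windows of 5 members, Hsph1, Hspd1, Hspe1, Dnajb6 and Chordc1. It occurred in 0.662% of the 27025 genes of the table (0.603% of 32851 windows of the same length). The shorter pair of units, GAA and TTC in either order with any 2 bases between them, which every longer match contains, was found in 16 members and in 17% of all genes (15.1% of windows). The sites below are shown for the members with 3 units and for Dnajb4 and Dnaja1, which hold the pair and on which several results turn; capitals mark the matched letters, and each is written on the strand of its gene.
Hsph1: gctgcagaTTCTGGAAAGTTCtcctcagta
Hspd1: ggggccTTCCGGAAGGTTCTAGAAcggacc
Hspe1: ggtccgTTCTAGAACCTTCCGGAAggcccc
Chordc1: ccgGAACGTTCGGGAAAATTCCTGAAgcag
Dnajb6: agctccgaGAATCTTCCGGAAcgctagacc
Dnajb4: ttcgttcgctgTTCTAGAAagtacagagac
Dnaja1: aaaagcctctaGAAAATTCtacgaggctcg

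In GRCm38.p6 these stretches of 30 bases lie at chr5:149636279-149636308 (minus strand), chr1:55088053-55088082 (shared by Hspd1 on the minus and Hspe1 on the plus strand), chr9:18292260-18292289 (plus), chr5:29735844-29735873 (plus), chr3:152193841-152193870 (minus) and chr4:40722333-40722362 (plus). Hspd1 and Hspe1, which code for HSP60 and HSP10, lie on either side of this stretch and run in opposite directions, so their element is 1 sequence read from both strands. Counted from the start of the window used, the Hsph1 stretch runs from 8 to 37 bases after it. The Dnajb4 and Chordc1 stretches span the start, and the others lie before it. Hsph1 and Dnajb6 have 2 windows each, both with the match but at other distances from the start. Hspd1 and Dnajb4 have 2 and Dnaja1 has 3, of which only 1 holds the match, so these matches depend on the start taken. A match is a description of the letters and was not tested for binding.

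In the differentiation medium, most called members were higher in the transfected lines than in WT. In all counts that follow, a gene is called higher or lower when its limma p-value, adjusted by Benjamini-Hochberg over all 16240 tested genes, is below 0.05, and differences are on the log2 scale, first group minus second. In TO-d against WT-d, 22 of the 36 members were higher and 4 lower (72.2% called), where 46.6% of the 16240 tested genes were called, 23% higher and 23.6% lower. The members' median difference was 0.39 and that of all genes -0.03. J-domain proteins (6 of 7 higher), CCT subunits (6 of 7) and HSP90 with its cochaperones (5 of 8) made up most of the higher members, and Hsf1, Cryab, Dnajb6 and St13 were the lower ones. In OT-d against WT-d, 16 members were higher and 6 lower (61.1%), where 51.7% of the 16240 tested genes were called, 26.6% higher and 25.1% lower. The median there was 0.20, and that of all genes -0.02. Both comparisons use the same 4 WT-d samples. With loess normalisation alone the TO-d split was 25 and 1.

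**Figure D1:**
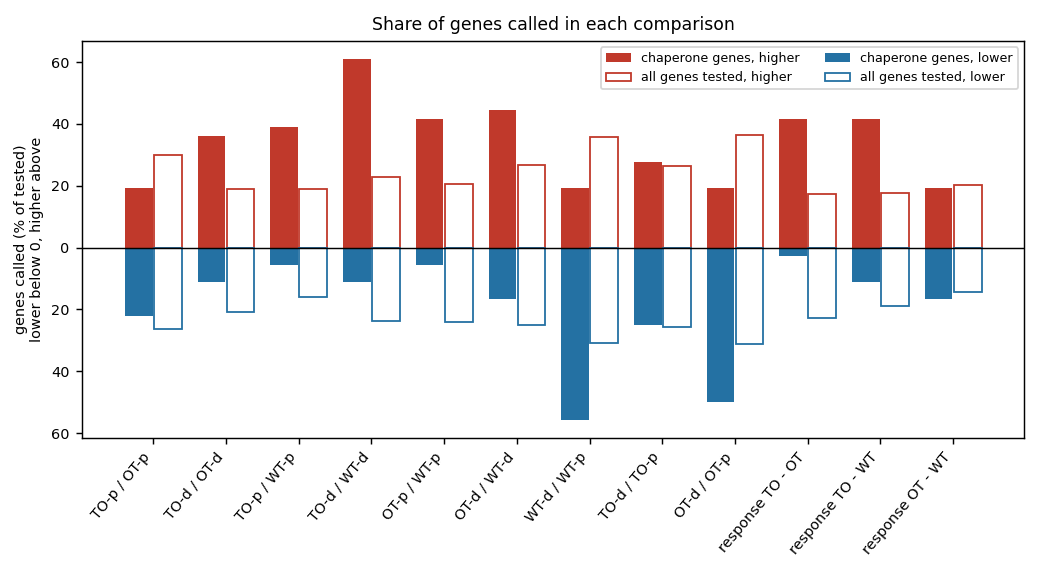
Percentage of the 36 tested members and of all 16240 tested genes called higher (red bars above 0) or lower (blue bars below 0), filled for members and open for all genes, in each of the 9 comparisons of groups and the 3 differences between medium responses. The members' share stood highest in WT-d against WT-p, at 75%, and lowest in the OT response against that of WT, at 36.1%.

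In the proliferation medium fewer members were called between the transfected lines and WT. In TO-p against WT-p, 14 members were higher and 2, Cryab and Dnajc7, lower (44.4%), where 35% of the 16240 tested genes were called, 19.1% higher and 15.9% lower; the median was 0.17, against 0.01 for all genes. In OT-p against WT-p, 15 were higher and 2, Cryab and Cdc37, lower (47.2%), where 44.6% of the 16240 tested genes were called, 20.6% higher and 24% lower; the median was 0.14, against -0.02. These counts changed when 1 sample was left out: the first fell to 10 without WT-p replicate 4 or without TO-p replicate 1, and the second to 10 without WT-p replicate 2 and to 11 without OT-p replicate 4. Without the array that holds TO-p replicate 1 and WT-p replicate 3 the first was 6. The share of all genes called in these refits was not computed, so whether such losses are particular to the members is not known. The Dnajc7 call was lost without WT-p replicate 1 or 3 or TO-p replicate 1 or 3 (-0.34 to -0.26). With loess normalisation and no scaling between arrays, the TO-p split was 6 higher and 3 lower.

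Between the transfected lines, higher and lower members were nearly equal in number in the proliferation medium, and most called members were higher in TO in the differentiation medium. In TO-p against OT-p, 7 were higher and 8 lower (41.7%), where 56.2% of the 16240 tested genes were called, 29.9% higher and 26.3% lower; the median was -0.09, against 0.02 for all genes. Dnajb4, Dnajb2, Hspa4l and Cdc37 were higher in TO-p, and Hsph1, Bag1, Dnajc7, Dnaja1 and Cct3 were lower. In TO-d against OT-d, 13 were higher and 4 lower (47.2%), where 39.8% of the 16240 tested genes were called, 18.9% higher and 20.8% lower; the median was 0.16, against -0.02. All 3 mitochondrial chaperones were among the higher ones, with Ahsa1, Hspa4 and Dnajb4, and the lower ones were Bag1, Dnajb6, Hsf1 and Cryab. The Hsf1 call was lost in 16 of the 24 fits that left out 1 sample, and that of Dnajb6 without TO-d replicate 4 or OT-d replicate 2 or 4 (-0.36 to -0.30). With loess normalisation alone the last split was 14 and 1.

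Most members were lower in the differentiation medium in WT cells, with 7 higher and 20 lower in WT-d compared with WT-p (75%), while 66.7% of the 16240 tested genes were called, 35.8% higher and 30.8% lower; the median was -0.31, against 0.06 for all genes. All 6 called members of the HSP90 group and all 6 called CCT subunits were lower. In OT cells 7 were higher and 18 lower (69.4%), where 67.4% of the 16240 tested genes were called, 36.4% higher and 31.1% lower; the median was -0.24, against 0.04. In TO cells the directions were nearly even, with 10 higher and 9 lower (52.8%), where 52.3% of the 16240 tested genes were called, 26.5% higher and 25.8% lower; the median was -0.06, against 0.00. With loess normalisation alone the TO split was 10 and 4.

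**Figure D2:**
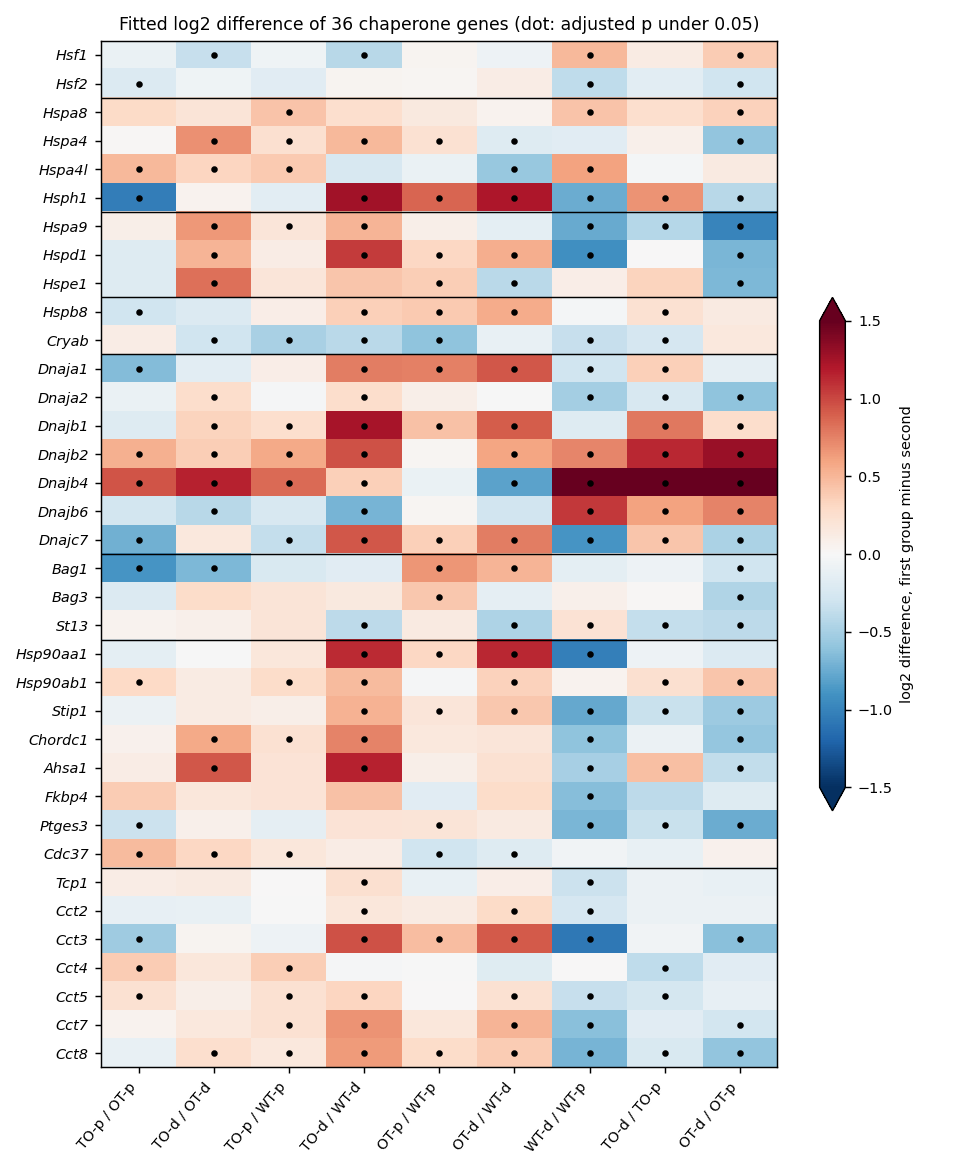
Heat map of the log2 difference of the 36 tested members (grouped by role) in the 9 comparisons of groups, with a dot where the adjusted p was below 0.05. In WT-d against WT-p 6 of 7 CCT and 6 of 8 HSP90 group members are lower, in TO-d against WT-d 6 and 5 are higher, and Dnajb4 has the largest medium differences, up to 2.34.

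Testing the difference between medium responses directly, the response of TO exceeded that of WT in 15 members and lay below it in 4 (52.8%), where 36.5% of the 16240 tested genes were called, 17.6% higher and 18.9% lower. Against the response of OT it was higher in 15 and lower in 1 (44.4%), where 40.2% of the 16240 tested genes were called, 17.4% higher and 22.9% lower. The responses of OT and WT differed in 7 members upward and 6 downward (36.1%), where 34.9% of the 16240 tested genes were called, 20.4% higher and 14.5% lower, which is close to the share of all genes. The members' medians were 0.24, 0.17 and 0.12, against -0.04, -0.03 and 0.00 for all genes. The first split was 13 and 8 with the scanner's processed signals and 20 and 0 with loess alone, and the last was 3 higher and 8 lower with the former and 8 higher and 3 lower with the latter, so its balance depends on the scaling.

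**Figure D3:**
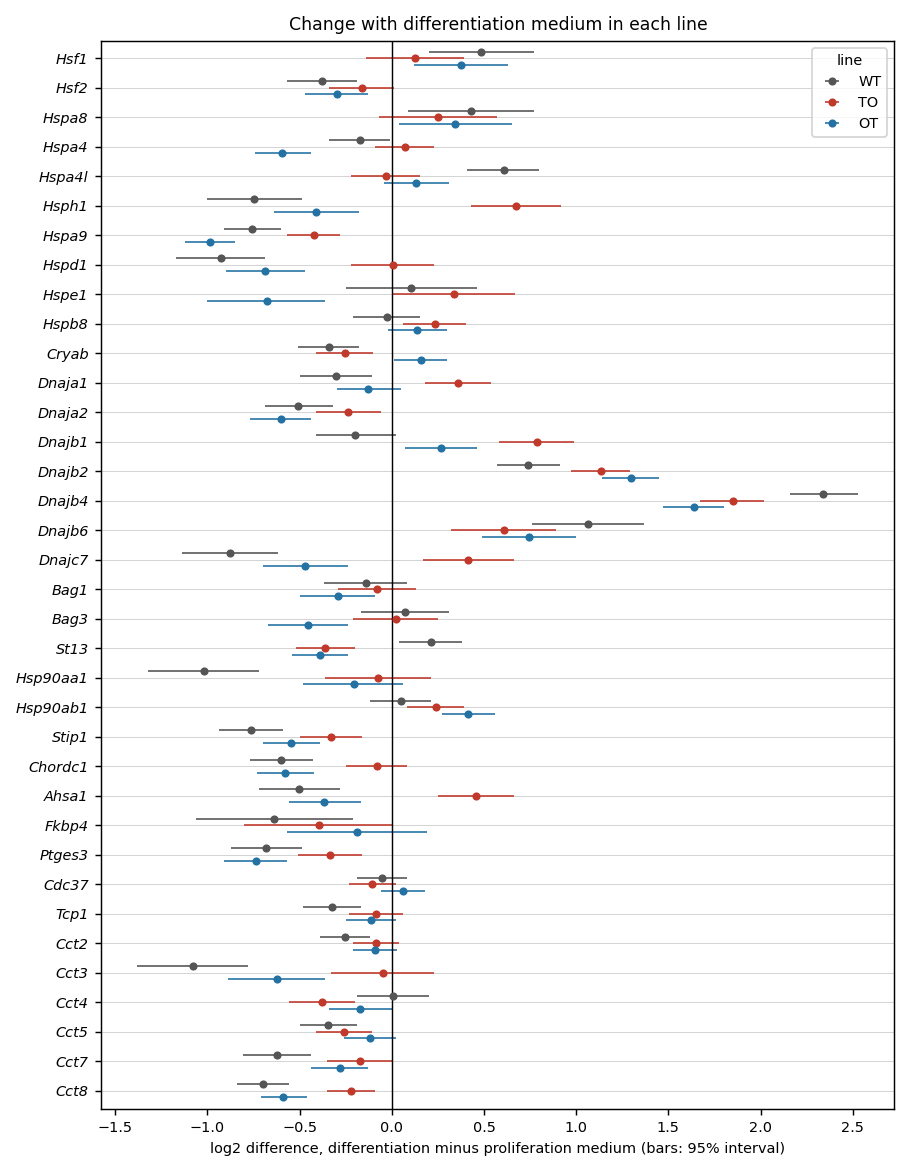
Medium response (differentiation minus proliferation medium, log2) of the tested members in WT, TO and OT cells, with points for the fitted difference and bars for its 95% interval. Hsph1 is at -0.75 in WT, 0.67 in TO and -0.41 in OT, and Dnajb4 is above 1.5 in all 3 lines.

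Hsf1, the master heat shock factor, showed modest differences. Its 4 levels were 13.22, 13.41, 12.90 and 13.04 in WT-p and 13.75, 13.83, 13.41 and 13.43 in WT-d, and 13.07, 13.30, 13.25 and 13.49 in TO-d. Only WT-p replicate 2, at 13.41, reached the WT-d range, and TO-d overlapped both. Hsf1 was higher in WT-d compared with WT-p by 0.48 (SE 0.14, adjusted p = 0.00355) and lower in TO-d compared with WT-d with a difference of -0.42 (SE 0.15, adjusted p = 0.0219); the latter call was lost without WT-d replicate 2 or TO-d replicate 1, at -0.30 in both cases. Both other Hsf1 probes gave 0.15 for TO-d against WT-d, of the opposite sign and not called, and 0.02 and 0.00 for WT-d against WT-p. In OT-d against WT-d they were called higher, at 0.41 and 0.38, where the brightest probe gave -0.07. Hsf2, a related factor active in development, was lower in WT-d compared with WT-p with a difference of -0.38 (SE 0.09, adjusted p = 0.000825), with no overlap between the groups.

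Among the HSP70 and HSP110 genes, Hsph1 separated the groups most. Hsph1 encodes HSP110, the exchange factor that lets HSP70 pull apart aggregates, and its probe lies at chr5:149885230-149885289 of mm8, the build of the array's annotation. It stood at 14.83, 14.13, 14.67 and 14.16 in WT-p and 13.80, 14.02, 13.64 and 13.43 in WT-d. It stood at 14.36, 14.34, 14.23 and 14.37 in TO-p and 15.05, 15.00, 14.80 and 14.85 in TO-d, and at 15.39, 15.33, 15.25 and 15.22 in OT-p and 15.02, 14.97, 14.95 and 14.87 in OT-d. All TO-p values lay below all OT-p values, with a difference of -1.03 (SE 0.12, 2.05-fold, adjusted p = 9.79e-08), and all WT-d values lay below those of both transfected lines in the same medium. The difference was 1.26 (SE 0.13, 2.4-fold, adjusted p = 1.2e-07) for TO-d against WT-d, 1.21 (SE 0.12, 2.31-fold, adjusted p = 1.75e-08) for OT-d against WT-d and 0.88 (SE 0.10, 1.84-fold, adjusted p = 5.95e-07) for OT-p against WT-p. With the medium it fell in WT by 0.75 and in OT by 0.41 and rose in TO by 0.67, each without overlap of the samples. The TO response exceeded that of WT by 1.42 (SE 0.17, 2.68-fold, adjusted p = 3.85e-06) and that of OT by 1.09 (SE 0.17, 2.12-fold, adjusted p = 2.44e-05). The WT-p samples spread widely, with replicates 1 and 3 at 14.83 and 14.67 and replicates 2 and 4 at 14.13 and 14.16.

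Hspa4 and Hspa4l encode further proteins of the HSP110 kind. Hspa4 stood at 12.27, 12.16, 12.14 and 12.13 in TO-p and 12.26, 12.20, 12.10 and 12.29 in TO-d, and at 12.16, 12.25, 12.16 and 12.12 in OT-p and 11.55, 11.44, 11.77 and 11.58 in OT-d. The OT-d samples lay below all others in these lines, so that Hspa4 was higher in TO-d compared with OT-d by 0.68 (SE 0.081, 1.6-fold, adjusted p = 5.38e-07) and fell from OT-p to OT-d by 0.59, and the TO response exceeded that of OT by 0.67 (SE 0.11, 1.59-fold, adjusted p = 4.9e-05). In WT it stood at 12.02, 11.86, 12.06 and 11.82 in WT-p and 11.53, 11.91, 11.75 and 11.83 in WT-d, which overlap. A second Hspa4 probe gave other values: 1.92 for TO-d against WT-d, where the brightest gave 0.49, and -1.22 for WT-d against WT-p, where it gave -0.17; for OT-d against WT-d it gave 1.55, opposite to the -0.19 of the brightest. Hspa4l stood at 11.85, 12.07, 11.86 and 11.98 in WT-p and 12.59, 12.46, 12.51 and 12.61 in WT-d. It stood at 12.38, 12.52, 12.46 and 12.08 in TO-p and 12.46, 12.24, 11.97 and 12.46 in TO-d, and at 12.05, 11.86, 11.78 and 11.72 in OT-p and 12.08, 12.01, 11.76 and 11.96 in OT-d. It was higher in WT-d compared with WT-p by 0.61 (SE 0.095, 1.52-fold, adjusted p = 6.45e-06) with no overlap, and its TO response lay below that of WT with a difference of -0.64 (SE 0.13, 1.56-fold, adjusted p = 0.000726); with loess alone the latter was -0.35 (adjusted p = 0.106). Another Hspa4l probe was lower in WT-d compared with WT-p, with a difference of -0.47.

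Hspa8, the constitutive cytosolic HSP70, stood at 16.66, 16.50, 15.80 and 15.89 in WT-p, with both Cy5 samples above both Cy3 samples, and at 16.50, 16.85, 16.49 and 16.46 in TO-p. It was higher in TO-p compared with WT-p by 0.43 (SE 0.15, adjusted p = 0.0247), with overlapping samples. The sign turned on slide 2, where the TO-p samples lay 0.18 below the WT-p sample. Both TO-p samples there were in Cy3 and the WT-p sample in Cy5, so dye and group cannot be told apart. The call was lost without WT-p replicate 3 or 4 or TO-p replicate 1, 2 or 3, at 0.33 to 0.47. Hspa1a, the stress-induced copy, was not well above background in any sample at its brightest probe, which ranged from 5.95 to 6.38. None of its 4 probes was well above background in all 4 samples of any group. Its near-identical copy Hspa1b could not be read apart from it. Hspb1, the small heat shock protein HSP27, ranged from 6.17 to 6.58 and was above background in only some samples of each group.

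**Figure D4:**
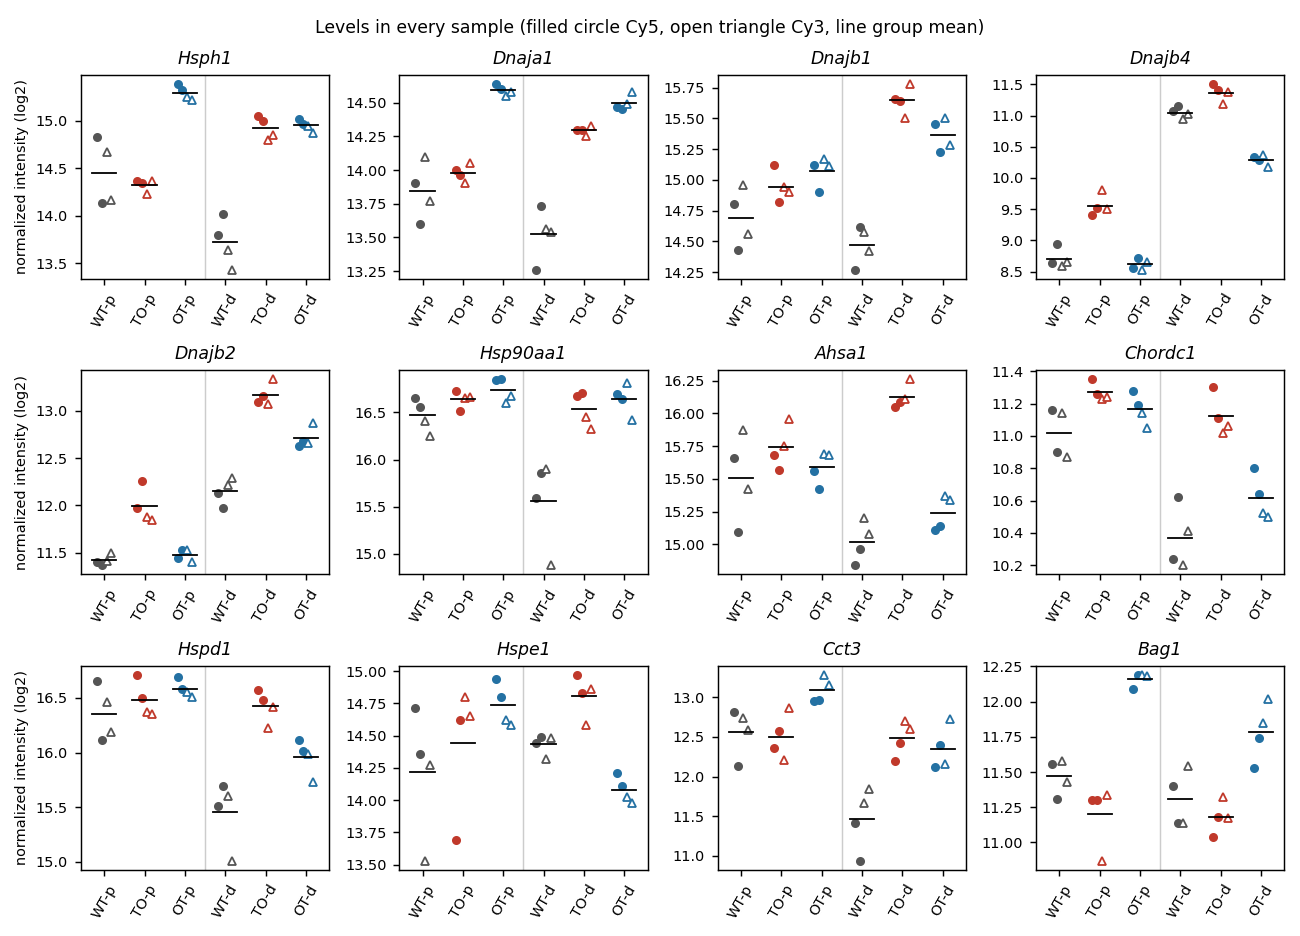
Log2 level of 12 members in each of the 24 samples by group, with filled circles for Cy5 samples, open triangles for Cy3 samples and a line at the group mean. Levels are comparable within a panel only, and Dnajb4 in WT-d, at 10.95 to 11.16, lies above every WT-p sample, at 8.59 to 8.94.

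The other small heat shock proteins moved in different directions. Cryab, alpha B-crystallin, stood at 8.83, 8.70, 8.62 and 8.83 in WT-p and 8.65, 8.45, 8.50 and 8.28 in WT-d. It stood at 8.14, 8.17, 8.35 and 8.44 in TO-p and at 8.20, 8.21, 8.14 and 8.06 in OT-p, all below WT-p. It was lower in OT-p compared with WT-p with a difference of -0.61 (SE 0.068, 1.52-fold, adjusted p = 2.26e-07) and in TO-p with a difference of -0.49 (SE 0.072, adjusted p = 1.4e-05). In TO-d it stood at 8.01, 8.20, 8.10 and 7.91, below all WT-d samples, and in OT-d at 8.38, 8.44, 8.30 and 8.32, within their range. Hspb8, which works with Bag3 in clearing aggregates, was higher in OT-p and OT-d than in WT, by 0.39 (SE 0.073, adjusted p = 0.000138) and 0.56 (SE 0.082, adjusted p = 5.91e-06), with no overlap.

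The J-domain proteins held the largest differences of the set. Dnajb4, an HSP70 partner close to Dnajb1, has its probe at chr3:152121669-152121728 of mm8. It stood at 8.63, 8.94, 8.59 and 8.65 in WT-p and 11.07, 11.16, 10.95 and 11.02 in WT-d. It stood at 9.40, 9.52, 9.80 and 9.50 in TO-p and 11.51, 11.41, 11.18 and 11.38 in TO-d, and at 8.55, 8.72, 8.53 and 8.66 in OT-p and 10.34, 10.29, 10.37 and 10.17 in OT-d. In each line all differentiation samples lay above all proliferation samples, and TO lay above OT in both media with no overlap. The medium difference was 2.34 (SE 0.089, 5.06-fold, adjusted p = 7.11e-16) in WT, 1.85 (SE 0.084, 3.6-fold, adjusted p = 1.92e-14) in TO and 1.64 (SE 0.08, 3.11-fold, adjusted p = 2.62e-14) in OT. The response of OT was smaller than that of WT with a difference of -0.70 (SE 0.11, 1.63-fold, adjusted p = 5.37e-05). TO exceeded OT by 0.95 (SE 0.083, 1.93-fold, adjusted p = 2.52e-09) in the proliferation and 1.16 (SE 0.089, 2.23-fold, adjusted p = 6.89e-10) in the differentiation medium. Against WT, TO-p was higher by 0.85 (SE 0.08, 1.8-fold, adjusted p = 2.98e-08), while OT-d was lower with a difference of -0.80 (SE 0.084, 1.75-fold, adjusted p = 5.55e-08). Within the slides the WT medium difference was 2.39 and 2.22, and a second probe gave 1.89, 1.38 and 1.14 in WT, TO and OT. Of the 2 promoter windows of Dnajb4, 1 holds the pair of units shown above and the other holds none, and neither holds a match of 3.

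Dnajb2, a J-domain protein abundant in neurons, rose in all 3 lines and stood highest in TO-d. Its samples read 11.40, 11.37, 11.41 and 11.50 in WT-p and 12.13, 11.97, 12.22 and 12.29 in WT-d. They read 11.97, 12.26, 11.88 and 11.85 in TO-p and 13.09, 13.15, 13.07 and 13.33 in TO-d, and 11.45, 11.53, 11.53 and 11.40 in OT-p and 12.63, 12.68, 12.66 and 12.87 in OT-d. No differentiation sample overlapped the proliferation samples of its line, and the 4 TO-d samples, from 13.07 to 13.33, lay above all others. The medium difference was 0.74 (SE 0.083, 1.67-fold, adjusted p = 5.21e-08) in WT, 1.13 (SE 0.078, 2.19-fold, adjusted p = 2.91e-11) in TO and 1.29 (SE 0.074, 2.45-fold, adjusted p = 4.09e-13) in OT. TO-d exceeded WT-d by 0.96 (SE 0.088, 1.94-fold, adjusted p = 1.62e-08), OT-d exceeded WT-d by 0.59 (SE 0.078, 1.5-fold, adjusted p = 1.52e-06), and TO-p exceeded WT-p by 0.56 (SE 0.074, 1.48-fold, adjusted p = 3.56e-06).

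Dnajb1, the classic stress-induced HSP40, was higher in the differentiated transfected cells than in WT-d. It stood at 14.80, 14.43, 14.96 and 14.56 in WT-p and 14.27, 14.62, 14.58 and 14.42 in WT-d. It stood at 15.12, 14.82, 14.94 and 14.90 in TO-p and 15.66, 15.64, 15.50 and 15.78 in TO-d, and at 15.12, 14.90, 15.17 and 15.11 in OT-p and 15.45, 15.23, 15.50 and 15.28 in OT-d. All TO-d and OT-d samples lay above all WT-d samples, by 1.23 (SE 0.11, 2.35-fold, adjusted p = 1.25e-08) and 0.91 (SE 0.10, 1.87-fold, adjusted p = 9.87e-08). It rose with the medium in TO by 0.79 (SE 0.10, 1.73-fold, adjusted p = 4.43e-07), and this response exceeded that of WT by 0.99 (SE 0.14, 1.98-fold, adjusted p = 3e-05). The second Dnajb1 probe rose in TO by 0.29 (adjusted p = 0.0242), but its TO-d against WT-d difference was 0.16 (adjusted p = 0.292), its OT-d against WT-d difference was -0.17 (adjusted p = 0.187), and its WT-d against WT-p difference was 0.65, where the brightest probe gave -0.20. The differences from WT-d, and the larger response in TO than in WT, were therefore seen with the brightest probe only.

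Dnaja1, an HSP40 of the other main class, separated OT from TO in the proliferation medium. It stood at 13.90, 13.60, 14.10 and 13.77 in WT-p and 13.26, 13.73, 13.56 and 13.54 in WT-d. It stood at 14.00, 13.96, 13.90 and 14.05 in TO-p and 14.30, 14.30, 14.25 and 14.33 in TO-d, and at 14.64, 14.60, 14.55 and 14.58 in OT-p and 14.47, 14.45, 14.49 and 14.58 in OT-d. The OT-p samples lay above all TO-p and WT-p samples, with TO-p lower than OT-p with a difference of -0.65 (SE 0.088, 1.57-fold, adjusted p = 1.36e-06) and OT-p higher than WT-p by 0.75 (SE 0.079, 1.69-fold, adjusted p = 1.01e-07). In the differentiation medium both lines exceeded WT-d, by 0.77 (SE 0.10, 1.7-fold, adjusted p = 2.35e-06) for TO-d and 0.93 (SE 0.088, 1.9-fold, adjusted p = 1.48e-08) for OT-d, and the TO response exceeded that of WT by 0.66 (SE 0.13, 1.58-fold, adjusted p = 0.000495). The other Dnaja1 probes gave -1.42 and -1.28 for TO-p against OT-p.

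Dnajc7, a J-domain protein that also binds HSP90, and Dnajb6, which holds back amyloid-prone chains, moved oppositely with the medium in WT. Dnajc7 stood at 12.63, 12.02, 12.76 and 12.35 in WT-p and 11.39, 11.51, 11.81 and 11.53 in WT-d. It stood at 12.02, 11.94, 12 and 12.49 in TO-p and 12.29, 12.42, 12.68 and 12.56 in TO-d, and at 12.72, 12.78, 12.89 and 12.89 in OT-p and 12.14, 12.37, 12.27 and 12.70 in OT-d. In TO-p, replicate 4 at 12.49 stood apart from the other 3, and all TO-p samples lay below all OT-p samples, with a difference of -0.72 (SE 0.12, 1.65-fold, adjusted p = 1.44e-05). It fell in WT with the medium by 0.88 (SE 0.12, 1.84-fold, adjusted p = 1.77e-06), TO-d and OT-d exceeded WT-d by 0.93 (SE 0.13, 1.91-fold, adjusted p = 6.97e-06) and 0.77 (SE 0.12, 1.71-fold, adjusted p = 9.95e-06), and the TO response exceeded those of WT by 1.29 (SE 0.17, 2.45-fold, adjusted p = 1.12e-05) and of OT by 0.88 (SE 0.17, 1.84-fold, adjusted p = 0.000252). Dnajb6 stood at 11.94, 12.28 and 11.93 in WT-p and 13.16, 12.73, 13.01 and 13.15 in WT-d, with WT-p replicate 3 missing. It stood at 11.90, 11.85 and 11.42 in TO-p and 12.53, 12.43, 12.28 and 12.22 in TO-d, with TO-p replicate 1 missing, and at 12.22, 12.16, 11.99 and 11.97 in OT-p and 12.90, 12.87, 12.13 and 12.99 in OT-d; the missing samples share 1 array, whose spot was marked an outlier and dropped from the fit. It rose in WT by 1.06 (SE 0.15, 2.09-fold, adjusted p = 1.99e-06), in TO by 0.61 (SE 0.14, 1.52-fold, adjusted p = 0.000862) and in OT by 0.74 (SE 0.12, 1.67-fold, adjusted p = 1.59e-05), and TO-d lay below WT-d with a difference of -0.70 (SE 0.14, 1.62-fold, adjusted p = 0.00057) with no overlap. Other Dnajb6 probes gave -0.15 and 0.46 for WT-d against WT-p. Dnaja2, a close relative of Dnaja1, fell in OT from 12.16, 12.21, 11.87 and 12.11 to 11.70, 11.71, 11.52 and 11.38, with no overlap, by 0.60 (SE 0.079, 1.52-fold, adjusted p = 4.72e-07).

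Of the HSP70 cochaperones, Bag1, a nucleotide exchange factor that also binds cell-survival proteins, differed between TO and OT in both media. It stood at 11.56, 11.31, 11.58 and 11.43 in WT-p and 11.40, 11.14, 11.14 and 11.54 in WT-d. It stood at 11.30, 11.30, 10.87 and 11.34 in TO-p and 11.04, 11.18, 11.32 and 11.17 in TO-d, and at 12.09, 12.19, 12.19 and 12.18 in OT-p and 11.53, 11.74, 11.85 and 12.02 in OT-d. The OT-p and OT-d samples lay above all TO samples of the same medium, with a TO minus OT difference of -0.89 (SE 0.10, 1.85-fold, adjusted p = 1.31e-07) and -0.68 (SE 0.11, 1.6-fold, adjusted p = 2.88e-05), and OT-p exceeded WT-p by 0.66 (SE 0.092, 1.58-fold, adjusted p = 4.29e-06). St13, the HSP70-interacting protein Hip, stood at 13.71, 13.67, 13.72 and 13.82 in WT-p and 13.94, 13.94, 13.70 and 14.21 in WT-d. It stood at 13.77, 13.97, 14.06 and 13.96 in TO-p and 13.59, 13.57, 13.51 and 13.65 in TO-d, and at 14.01, 13.92, 13.89 and 13.83 in OT-p and 13.44, 13.53, 13.50 and 13.58 in OT-d. It was higher in WT-d compared with WT-p by 0.21 (SE 0.082, adjusted p = 0.0262) with overlapping samples, a call lost without WT-p replicate 1 or 2 or WT-d replicate 1 or 4 (0.12 to 0.21), while it fell without overlap in OT by 0.39, and the OT response lay below that of WT with a difference of -0.61 (SE 0.10, 1.52-fold, adjusted p = 0.000114). Another St13 probe was called in the opposite direction in 4 of the comparisons. Bag3, the stress-induced partner of Hspb8, was higher in OT-p compared with WT-p by 0.40 (SE 0.10, adjusted p = 0.00195) and fell in OT by 0.46.

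Of the HSP90 group, 6 of 8 were lower in WT-d against WT-p (30.8% of all tested genes), where Hsp90ab1 and Cdc37 were at 0.05 and -0.05 and were not called, and 5 of 8 were higher in TO-d against WT-d (23% of all genes). Hsp90aa1, the inducible cytosolic HSP90, stood at 16.65, 16.56, 16.41 and 16.25 in WT-p and 15.59, 15.86, 15.90 and 14.88 in WT-d. It stood at 16.73, 16.51, 16.65 and 16.66 in TO-p and 16.67, 16.71, 16.45 and 16.32 in TO-d, and at 16.84, 16.85, 16.60 and 16.67 in OT-p and 16.70, 16.64, 16.81 and 16.42 in OT-d. The 4 WT-d samples lay below all other samples, and replicate 4, at 14.88, was the lowest of them. Hsp90aa1 fell in WT by 1.02 (SE 0.14, 2.03-fold, adjusted p = 1.86e-06), and TO-d and OT-d exceeded WT-d by 1.12 (SE 0.15, 2.17-fold, adjusted p = 4.85e-06) and 1.13 (SE 0.14, 2.18-fold, adjusted p = 4.82e-07). The responses of TO and OT exceeded that of WT by 0.95 (SE 0.20, 1.93-fold, adjusted p = 0.000987) and 0.81 (SE 0.19, 1.76-fold, adjusted p = 0.0016); with the scanner's processed signals these were 0.64 (adjusted p = 0.0648) and 0.57 (adjusted p = 0.0894). Hsp90ab1, the constitutive form, was higher in TO-d and OT-d compared with WT-d by 0.47 (SE 0.085, adjusted p = 0.000115) and 0.35 (SE 0.075, adjusted p = 0.000534), with no overlap only for TO-d.

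Ahsa1, the activator of the HSP90 ATPase, was higher in TO-d than in every other group. It stood at 15.66, 15.09, 15.87 and 15.42 in WT-p and 14.84, 14.96, 15.20 and 15.08 in WT-d. It stood at 15.68, 15.57, 15.75 and 15.96 in TO-p and 16.05, 16.09, 16.11 and 16.26 in TO-d, and at 15.56, 15.42, 15.69 and 15.68 in OT-p and 15.11, 15.14, 15.37 and 15.34 in OT-d. All TO-d samples, from 16.05 to 16.26, lay above all others, by 0.94 (SE 0.10, 1.91-fold, adjusted p = 2.34e-07) against OT-d and 1.16 (SE 0.11, 2.23-fold, adjusted p = 3.64e-08) against WT-d. The TO response exceeded that of OT by 0.82 (SE 0.14, 1.77-fold, adjusted p = 8.89e-05) and that of WT by 0.96 (SE 0.15, 1.94-fold, adjusted p = 4.31e-05). Within slides the TO-d against WT-d difference was 1.00 and 1.30, the latter with TO-d in Cy3 and WT-d in Cy5.

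Chordc1, an HSP90 cochaperone whose promoter window holds 3 or more units, stood at 11.16, 10.90, 11.14 and 10.87 in WT-p and 10.24, 10.62, 10.20 and 10.41 in WT-d. It stood at 11.35, 11.26, 11.23 and 11.24 in TO-p and 11.30, 11.11, 11.02 and 11.06 in TO-d, and at 11.28, 11.19, 11.14 and 11.05 in OT-p and 10.80, 10.64, 10.52 and 10.50 in OT-d. All WT-d samples lay below all TO-d samples, by 0.75 (SE 0.089, 1.68-fold, adjusted p = 7.18e-07), and below WT-p, with a difference of -0.60 (SE 0.084, 1.52-fold, adjusted p = 1.41e-06), and TO-d exceeded OT-d by 0.56 (SE 0.084, adjusted p = 1.05e-05). Stip1, which hands clients from HSP70 to HSP90, stood at 12.43, 12.25, 12.66 and 12.40 in WT-p and 11.60, 11.69, 11.48 and 11.79 in WT-d, and fell by 0.77 (SE 0.086, 1.7-fold, adjusted p = 5.49e-08) with no overlap. It also fell in TO and OT, by 0.33 and 0.55. Ptges3, the cochaperone p23, stood at 13.99, 13.95, 14.06 and 13.91 in WT-p and 13.16, 13.70, 13.20 and 13.04 in WT-d, and at 14.11, 14.17, 14.15 and 14.10 in OT-p and 13.46, 13.56, 13.51 and 13.38 in OT-d; it fell by 0.68 (SE 0.091, 1.6-fold, adjusted p = 7.48e-07) and 0.74 (SE 0.081, 1.67-fold, adjusted p = 2.79e-08), without overlap in either line. Cdc37, which brings kinases to HSP90, was higher in TO than in OT in both media, by 0.47 (SE 0.061, adjusted p = 6.45e-07) and 0.30 (SE 0.065, adjusted p = 0.000617), with no overlap.

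Fkbp4, a peptidyl-prolyl isomerase of steroid receptor complexes, stood at 13.46, 13.33, 13.68 and 13.66 in WT-p and 12.95, 12.79, 12.90 and 13.04 in WT-d. It stood at 13.80, 13.81, 13.57 and 13.78 in TO-p and 13.14, 13.31, 13.42 and 13.50 in TO-d, and at 13.36, 12.32, 13.55 and 13.56 in OT-p and 13.07, 13.24, 13.56 and 12.13 in OT-d. OT-p replicate 2 at 12.32 and OT-d replicate 4 at 12.13 lay far below their groups, and both samples share 1 array. Fkbp4 fell in WT by 0.64 (SE 0.20, 1.56-fold, adjusted p = 0.00921), without overlap of the WT samples. The OT samples also enter this fit, through the shared variance, the dye term and the array as a block. Without that array the value was -0.62 (adjusted p = 3.47e-06). Its second probe gave -1.48 there.

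The chaperonin CCT is a ring of different subunits, of which 7 were tested, and in WT-d against WT-p 6 of them were lower (30.8% of all tested genes) and none higher. In TO-d against WT-d 6 were higher (23% of all genes), and in OT-d against WT-d 5 (26.6%), with the same WT-d samples in both. Cct3 had the largest differences, and its probe stood at 12.81, 12.13, 12.74 and 12.58 in WT-p and 11.41, 10.94, 11.67 and 11.84 in WT-d. It stood at 12.36, 12.57, 12.21 and 12.86 in TO-p and 12.20, 12.42, 12.70 and 12.60 in TO-d, and at 12.95, 12.97, 13.28 and 13.15 in OT-p and 12.12, 12.40, 12.16 and 12.72 in OT-d. All WT-d samples lay below every other sample. Cct3 fell in WT by 1.08 (SE 0.14, 2.11-fold, adjusted p = 7.56e-07) and in OT by 0.62 (SE 0.13, 1.54-fold, adjusted p = 0.000168), and TO-d and OT-d exceeded WT-d by 0.96 (SE 0.15, 1.94-fold, adjusted p = 2.93e-05) and 0.92 (SE 0.14, 1.89-fold, adjusted p = 6.72e-06). In the proliferation medium it was lower in TO-p compared with OT-p with a difference of -0.54 (SE 0.14, adjusted p = 0.00162), and the TO response exceeded that of WT by 1.03 (SE 0.20, 2.04-fold, adjusted p = 0.000447).

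Cct8 stood at 14.22, 13.95, 14.12 and 14.13 in WT-p and 13.23, 13.33, 13.51 and 13.52 in WT-d. It stood at 14.09, 14.28, 14.23 and 14.41 in TO-p and 13.99, 13.98, 14.09 and 14.12 in TO-d, and at 14.32, 14.34, 14.49 and 14.46 in OT-p and 13.69, 13.72, 13.83 and 13.93 in OT-d. Every differentiation sample of WT lay below those of TO and OT, and Cct8 fell by 0.70 (SE 0.068, 1.62-fold, adjusted p = 5.13e-09) in WT and 0.59 (SE 0.06, 1.5-fold, adjusted p = 8.87e-09) in OT, while TO-d exceeded WT-d by 0.63 (SE 0.072, 1.55-fold, adjusted p = 3.75e-07). Cct7 stood at 16.73, 16.32 and 16.35 in WT-p and 15.87, 15.79, 15.86 and 15.70 in WT-d with WT-p replicate 3 missing, and at 16.79, 16.49 and 16.60 in TO-p and 16.56, 16.48, 16.29 and 16.51 in TO-d with TO-p replicate 1 missing. The OT samples read 16.55, 16.58, 16.67 and 16.61 in OT-p and 16.22, 16.35, 16.28 and 16.29 in OT-d. Cct7 fell in WT by 0.62 (SE 0.089, 1.54-fold, adjusted p = 3.2e-06) and was higher in TO-d compared with WT-d by 0.67 (SE 0.088, 1.59-fold, adjusted p = 3.82e-06), with no overlap in either. The other subunits differed by less: Tcp1, Cct2 and Cct5 fell in WT by 0.32, 0.26 and 0.34, and Cct4 was called in neither WT-d against WT-p nor TO-d against WT-d by its brightest probe, while its second probe was called in both, at -0.58 and 0.52. The sign for Cct2 in TO-d against WT-d turned with the scanner's processed signals, from 0.17 to -0.05, and its call was lost in 18 of the 24 fits that left out 1 sample. Another probe was called in the opposite direction for Tcp1 in TO-d against WT-d and in WT-d against WT-p, and for Cct4 in TO-p against OT-p.

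The mitochondrial chaperones Hspd1 (HSP60), Hspe1 (HSP10) and Hspa9 (mitochondrial HSP70) were all higher in TO-d compared with OT-d, and all fell in OT with the medium. Hspd1 stood at 16.65, 16.11, 16.46 and 16.19 in WT-p and 15.51, 15.69, 15.60 and 15.01 in WT-d. It stood at 16.71, 16.50, 16.37 and 16.35 in TO-p and 16.57, 16.48, 16.22 and 16.42 in TO-d, and at 16.69, 16.58, 16.55 and 16.51 in OT-p and 16.11, 16.01, 15.99 and 15.73 in OT-d. The WT-d samples lay below all others, and the TO samples of both media overlapped. Hspd1 fell in WT by 0.93 (SE 0.12, 1.9-fold, adjusted p = 2.85e-07) and in OT by 0.69 (SE 0.10, 1.61-fold, adjusted p = 3.11e-06), while TO-d exceeded WT-d by 1.05 (SE 0.12, 2.07-fold, adjusted p = 6.19e-07) and OT-d by 0.51 (SE 0.12, adjusted p = 0.00127). The TO response exceeded that of WT by 0.93 (SE 0.16, 1.91-fold, adjusted p = 0.000145) and that of OT by 0.70 (SE 0.16, 1.62-fold, adjusted p = 0.00113).

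Hspe1, which shares its promoter stretch with Hspd1, stood at 14.71, 14.36, 13.53 and 14.27 in WT-p and 14.44, 14.49, 14.32 and 14.48 in WT-d. It stood at 13.69, 14.62, 14.80 and 14.65 in TO-p and 14.97, 14.83, 14.58 and 14.86 in TO-d, and at 14.94, 14.80, 14.62 and 14.58 in OT-p and 14.21, 14.11, 14.02 and 13.98 in OT-d. TO-p replicate 1 at 13.69 and WT-p replicate 3 at 13.53 lay below the rest of their groups, and both samples share 1 array. TO-d exceeded OT-d by 0.82 (SE 0.17, 1.77-fold, adjusted p = 0.000546) and Hspe1 fell in OT by 0.68 (SE 0.15, 1.6-fold, adjusted p = 0.000481), both without overlap and without a sample of that array. The TO response exceeded that of OT by 1.01 (SE 0.23, 2.02-fold, adjusted p = 0.00138), and the OT response lay below that of WT with a difference of -0.78 (SE 0.22, 1.72-fold, adjusted p = 0.0084); without the array of the low pair these were 0.84 (adjusted p = 4.2e-05) and -0.65 (adjusted p = 0.000205). In WT it did not pass the test, at 0.10 (SE 0.17, adjusted p = 0.612), where Hspd1 fell. Hspa9 stood at 14.67, 14.49, 14.92 and 14.86 in WT-p and 13.86, 13.96, 14.01 and 14.08 in WT-d. It stood at 15.01, 14.94, 15.01 and 14.86 in TO-p and 14.47, 14.40, 14.41 and 14.66 in TO-d, and at 14.84, 14.77, 14.79 and 14.76 in OT-p and 13.90, 13.78, 13.87 and 13.77 in OT-d. It fell in every line without overlap, by 0.76 (SE 0.074, 1.69-fold, adjusted p = 6.47e-09) in WT, 0.42 in TO and 0.99 (SE 0.066, 1.98-fold, adjusted p = 6.58e-12) in OT, and TO-d exceeded OT-d by 0.66 (SE 0.074, 1.58-fold, adjusted p = 2.54e-07).

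For 23 members at least 1 further probe was measured, which gives a second reading of 107 called differences. In 86 of them all further probes had the same sign as the brightest probe, and in 10 another probe was called in the opposite direction. These 10 belonged to Cct4, Hspa4, Hspa4l, St13 and Tcp1. Differences not called by the brightest probe are outside these counts. For Fkbp4 the second probe gave 0.89 for TO-d against WT-d and 1.12 for OT-d against WT-d, where the brightest gave 0.44 and 0.27 and was not called. In the proliferation medium it was called with the opposite sign. It gave -0.41 for TO-p against OT-p and 0.33 for OT-p against WT-p, where the brightest gave 0.38 and -0.17, neither called. Whether the probes read different transcripts was not tested.

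**Figure D5:**
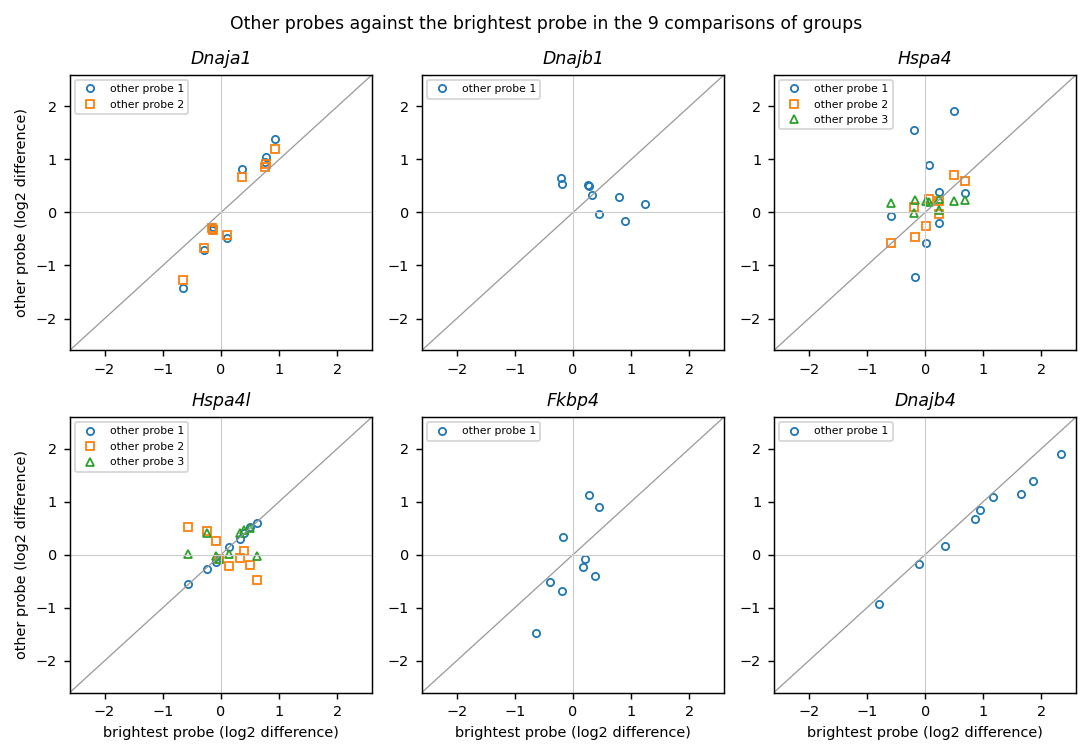
Log2 difference from the other probes of Dnaja1, Dnajb1, Hspa4, Hspa4l, Fkbp4 and Dnajb4 (vertical) against that from the brightest probe (horizontal) in the 9 comparisons of groups, with a line of equality. Dnajb4's second probe follows its brightest, at 1.89 and 2.34 in the WT medium comparison, while Hspa4's second probe reaches 1.92 where its brightest gives 0.49.

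The slides gave further readings, taken as plain differences of means without the dye term. On some slides the compared groups were in different dyes, so dye and group cannot be told apart there. This held on slide 2 for TO-p and OT-p against WT-p and on slide 3 for TO-d against WT-d, among others. The sign of a called difference turned within a slide in few members, none with a pooled difference above 0.43: 1 of 17 in TO-d against OT-d, 1 and 4 of 16 in TO-p against WT-p, 3 of 26 in TO-d against WT-d, 1 and 3 of 17 in OT-p against WT-p, 2 of 22 in OT-d against WT-d, 2 of 27 in WT-d against WT-p and 1 of 19 in TO-d against TO-p. Cct5 turned in 3 of these and Cct2 and Dnaja2 in 2 each. In its called differences Hsph1 kept its sign in every slide, with TO-d against WT-d at 1.42 and 0.84 and TO-p against OT-p at -1.03, -0.96 and -0.94.

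Of 87 further chaperone and protein-quality genes listed, 86 were tested, and the percentage beside each count below is the share of all 16240 tested genes called in that comparison. In WT-d against WT-p 18 rose and 38 fell (66.7%), among them Serpinh1, the collagen chaperone HSP47 (-1.70), and Dnajc9, a J-domain protein of histone supply (-1.68), while Dnajc18 (1.54) rose. In TO 21 rose and 30 fell (52.3%), and in OT 24 rose and 38 fell (67.4%); Dnajc9 was lower in both, at -1.53 and -2.13. In TO-d against WT-d 34 were higher and 15 lower (46.6%), with the tubulin cofactor Tbcd at 1.27 and Dnaja4 at -1.28, and in OT-d against WT-d 25 were higher and 18 lower (51.7%). In TO-d against OT-d 22 were higher and 6 lower (39.8%), with Ppid, the HSP90 cochaperone cyclophilin 40, at 0.82. In the proliferation medium TO-p against OT-p had 27 higher and 31 lower (56.2%), with Serpinh1 at 1.47, the mitochondrial protease Lonp1 at 1.00 and the heat-responsive Zfand2a at -0.95. TO-p against WT-p had 16 higher and 22 lower (35%), and OT-p against WT-p had 16 higher and 20 lower (44.6%). In cultures measured as a whole, fewer cells of 1 kind and less RNA in each cell cannot be told apart.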

How the data were processed

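Total RNA of 24 samples in 6 groups of 4 was labelled with Cy5 or Cy3 from 0.2 µg and hybridised on 12 Agilent 2-colour arrays. The deposited scanner files hold spot intensity, background and outlier marks from Feature Extraction (version 10.5.1.1 in the file headers), deposited by the authors, and the same intensity data processed by that software; the deposited table of the series holds a linear intensity per probe, scaled between samples in a way not given in the sources used here. The log2 values printed here were computed from the deposited mean intensity: normexp background correction (offset 50), loess within arrays, Aquantile between arrays, and 1 value per sample from its own dye. Local backgrounds marked as outliers (1.81% of spots) were replaced by the channel's median, a choice made after seeing that 1 array held extreme values; outlier-marked spots (0.294%) were left out. Of 41174 probes, 24375 were named by accession, 6301 by symbol and 2426 by synonym in the RefSeq gene table, and 8072 kept the file's name.

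Groups were compared with limma 3.58.1 in R 4.3.3 (lmFit with group means, a dye term and the array as a block, correlation 0.452; eBayes; statmod 1.5.0), adjusted by Benjamini-Hochberg over 16240 genes at a threshold of 0.05; 11357 dim genes were not tested. A member was given in full when it was called with at least 1.5-fold in any comparison. Only the limma fit was tried on simulated normalised values. Background correction, normalisation and the choice of probe were not tested in this way. The members and lists were chosen with earlier results of these data known. The number of arrays limits the precision. No exon or UTR annotation of build mm8 was used here.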

Additional observations from a re-analysis of the deposited data

Results flagged for a closer look

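The medium responses of 2 lines differed by at least 1.5-fold, by limma's test of the difference itself, in 19 cases. At any fold, 40.2% of all 16240 tested genes were called for TO against OT, 36.5% for TO against WT and 34.9% for OT against WT. The share of all genes at 1.5-fold was not computed, so whether 19 is many is not known. Between TO and OT the TO response was higher for Hsph1 (1.09 on the log2 scale, adjusted p = 2.44e-05), Hspe1 (1.01, 0.00138), Dnajc7 (0.88, 0.000252), Ahsa1 (0.82, 8.89e-05), Hspd1 (0.70, 0.00113) and Hspa4 (0.67, 4.9e-05). Between TO and WT it was higher for Hsph1 (1.42, adjusted p = 3.85e-06), Dnajc7 (1.29, 1.12e-05), Cct3 (1.03, 0.000447), Dnajb1 (0.99, 3e-05), Ahsa1 (0.96, 4.31e-05), Hsp90aa1 (0.95, 0.000987), Hspd1 (0.93, 0.000145) and Dnaja1 (0.66, 0.000495), and lower for Hspa4l (-0.64, 0.000726). Between OT and WT it was higher for Hsp90aa1 (0.81, adjusted p = 0.0016) and lower for Hspe1 (-0.78, 0.0084), Dnajb4 (-0.70, 5.37e-05) and St13 (-0.61, 0.000114). The differences that share the TO response or the WT response rest on the same samples. All are from the brightest probe, and for Dnajb1, Hspa4l and St13 a further probe gave the responses in the opposite order. For Dnajb1 it rose by 0.29 in TO and 0.65 in WT. These differences between the responses of further probes were not tested.

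The 25 members have 150 groups, of which those of Dnajb6 and Cct7 with a missing sample were not checked. In 7 of the groups of 4 samples checked, 1 sample stood apart from the others by Dixon's criterion, about as many as the 1 in 20 that chance gives. Hspe1 in TO-p replicate 1 was at 13.69, and Fkbp4 in OT-p replicate 2 at 12.32; each shares its array with another low sample of the same gene, WT-p replicate 3 at 13.53 and OT-d replicate 4 at 12.13. Fkbp4 in TO-p replicate 3 was at 13.57, Dnajb6 in OT-d replicate 3 at 12.13 and Dnajc7 in TO-p replicate 4 at 12.49. Bag1 was at 10.87 in TO-p replicate 3 and at 12.09 in OT-p replicate 1.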

How the results depend on the processing

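Of 232 called differences of members, 88 were at least 1.5-fold; none of these 88 lost its call when any 1 of the 24 samples was left out, and 85 kept it under all 9 other settings listed at the outset. The others were the Hsp90aa1 responses of OT and TO against WT with processed signals (0.57 and 0.64) and that of Hspa4l in TO against WT with loess alone (-0.35). Leaving outlier backgrounds as they stand lost 3, both Hsp90aa1 responses (0.64 and 0.72) and that of Hspd1 in TO against OT (0.64). That treatment was the one first planned. It became an alternative when marked backgrounds were replaced after seeing the data, and it is not among the 9 settings. Leaving out whole arrays and averaging same-numbered samples were also added after seeing the data. Of all 232, processed signals kept 203, the deposited series values 222, quantile normalisation 221, loess alone 191, no filter 216 and single probes 229. The fit without a dye term kept 192 and slide as a covariate 217. Outlier backgrounds as they stand, the first plan, kept 183, the fewest of these settings. Averaging the 2 samples of a group whose descriptions share a number kept 196. Leaving out 1 sample kept 5284 of 5568. The single-probe setting, 1 of the 9, refitted the same brightest probes among all measured probes. It therefore says nothing on agreement between probes. Only Cct2 in TO-d against WT-d reversed, to -0.05 with processed signals (adjusted p = 0.647). The count for TO-p against WT-p, 16, became 9 with loess alone, 6 without a dye term, 6 without the samples of array 1 and 8 with averaging; that for OT-p against WT-p, 17, became 10 with loess alone and 11 with backgrounds as they stand, and that for the OT response against WT, 13, became 7 with the last. The causes were not tested. For these settings and for the fits without 1 sample, the share of all genes called was not computed. Whether the changes in count are particular to the members is therefore not known. Leaving out 1 sample gave counts of 14 to 17 (TO-p against OT-p), 13 to 18 (TO-d against OT-d), 10 to 17 (TO-p against WT-p), 23 to 27 (TO-d against WT-d), 10 to 18 (OT-p against WT-p), 20 to 24 (OT-d against WT-d), 25 to 29, 16 to 20 and 23 to 27 (medium in WT, TO and OT) and 14 to 16, 16 to 21 and 11 to 16 (responses TO against OT, TO against WT, OT against WT). With processed signals the median of all genes in WT-d against WT-p was 0.19, where the main fit gave 0.06. The median correlation of deviations from the group means was 0.112 for 60 same-numbered pairs (lowest -0.233) and -0.0588 for 180 other pairs (lowest -0.506). Samples with the same replicate number also share the dye, so these values do not tell whether the numbers pair the samples. A replicate block gave counts of 14, 17, 13, 25, 15, 20, 27, 19, 24, 16, 20 and 12 in the order above and kept 220 of the 232. Dim signal limited Hspa1a and Hspb1.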

Other observations

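Dnajb4, the member with the largest differences, lies on chromosome 3, and its neighbours were looked at after its values were seen. Of the 5 tested genes on each side in the RefSeq gene order, 2 were higher and 5 lower in TO-p compared with OT-p, and 2 were higher and none lower in TO-p compared with WT-p (limma, adjusted p below 0.05). Of all 16240 tested genes, 29.9% were higher and 26.3% lower in the first comparison, and 19.1% and 15.9% in the second. The same shares stand beside the counts around Hspa4l and Hsph1 below, and whether any count departs from them was not tested. Gipc2, next to Dnajb4, was higher in TO-p by 1.86 against OT-p and by 0.72 against WT-p, while Fubp1 on the other side was at -0.71 and -0.07. Around Hspa4l, also on chromosome 3 and higher in TO-p compared with WT-p, none of the 10 neighbours was higher in TO-p compared with WT-p and 3 were lower. Around Hsph1 on chromosome 5, which was lower in TO-p compared with OT-p, 3 of the 10 neighbours were higher and 2 lower in that comparison.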
